A study of Homo sapiens with 9 samples.

Results

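Heat shock proteins and their J-domain co-chaperones were followed in the human lung adenocarcinoma line A549. The members are the protein-coding genes whose symbols begin with HSPA, HSPB, HSPD, HSPE, HSPH, HSP90, DNAJA, DNAJB or DNAJC and a number, and 72 of the 51796 genes of the count table qualified. A gene entered by its name and not by any measured value, although the families were chosen with earlier results of these data known. By family they are 12 HSP70 genes, 3 HSP110 genes, 3 HSP90 genes, 2 genes of the HSP60 and HSP10 chaperonin, 7 small heat shock proteins and 4 DNAJA, 12 DNAJB and 29 DNAJC genes. By the main location of the protein, taken from general knowledge, 36 were counted as cytosolic, 13 as residents of the endoplasmic reticulum (ER) or its membrane, 8 as mitochondrial and 15 as other or unsettled.

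Total RNA was depleted of ribosomal RNA and sequenced from 9 libraries, 3 biological replicates in each of 3 groups. All cells carried a stably expressed short hairpin RNA under puromycin selection and were grown in RPMI with 10% serum; the hairpin was directed against GFP in the control, against PRMT5 in the first knockdown and against MEP50 in the second. PRMT5 is an arginine methyltransferase that makes symmetric dimethylarginine; MEP50 is the WD-repeat protein it is bound to, and its gene is WDR77. The number and sequence of the hairpins, and whether replicates came from separate transductions, are not given in the sources used here, so that p-values measure the spread between these cultures only.

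Chaperones bind unfolded or partly folded proteins and keep them from aggregating. HSP70 proteins do so in a cycle of ATP hydrolysis that J-domain proteins (the DNAJ families) start and nucleotide exchange factors, among them the HSP110 proteins, end; HSP90 proteins act later, on kinases, receptors and other nearly folded clients. Each compartment has its own set, with HSPA8 and the HSP90 pair in the cytosol, HSPA5 (BiP) and HSP90B1 (GRP94) in the ER, and HSPA9 (mortalin) with the HSPD1 and HSPE1 chaperonin in mitochondria. Heat shock factors raise many cytosolic members through heat shock elements, and the unfolded protein response raises ER members through ER stress elements.

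Promoter stretches that hold these elements are shown because they belong to members whose levels are given further on, among them HSPA5, HSP90B1 and DNAJB6. The 300 bases around each RefSeq gene start (250 before and 50 after it, GRCh38.p14) were available for 53 of the 59 members that could be tested. A heat shock element of 3 units, GAANNTTCNNGAA on either strand, lay in 4 of these 53 promoters and in 133 of 27305 promoters of all genes (0.487%). An ER stress element, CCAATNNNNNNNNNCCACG on either strand, lay in 2 of the 53 and in 22 of the 27305 (0.0806%). A match is a description of the letters and does not show that a factor binds there. Only exact matches within this window were counted, so elements with other letters or outside it are missed. In the stretches below, written in the direction of transcription, capitals mark the matched element and the coordinates are those of the printed bases in GRCh38.p14. The heat shock element occurred once upstream of DNAJB6 and HSPA6 and in 2 places upstream of HSPA8; the match of DNAJA1 lay past the gene start and is not printed.
DNAJB6, chr7:157336863-157336895, plus strand: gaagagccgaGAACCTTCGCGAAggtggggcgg
HSPA6, chr1:161524456-161524488, plus strand: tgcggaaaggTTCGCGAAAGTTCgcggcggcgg
HSPA8, chr11:123062169-123062376, minus strand: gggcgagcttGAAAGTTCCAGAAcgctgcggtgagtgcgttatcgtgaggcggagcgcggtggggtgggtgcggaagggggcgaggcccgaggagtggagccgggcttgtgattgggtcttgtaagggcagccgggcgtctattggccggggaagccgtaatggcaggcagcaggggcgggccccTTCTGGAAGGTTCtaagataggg
The ER stress element occurred once upstream of HSPA5 and in 2 places, on opposite strands, upstream of HSP90B1.
HSPA5, chr9:125241381-125241419, minus strand: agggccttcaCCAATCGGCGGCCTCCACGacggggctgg
HSP90B1, chr12:103930206-103930349, plus strand: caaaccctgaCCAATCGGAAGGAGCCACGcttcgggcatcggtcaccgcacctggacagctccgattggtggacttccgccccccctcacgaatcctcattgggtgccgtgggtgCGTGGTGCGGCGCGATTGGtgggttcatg

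Between 20806181 and 31586128 reads per library fell on genes, and 14582 genes passed the filter on low counts. The labels were checked on the targeted genes. Control libraries had 209 ± 3.17 CPM (read counts scaled to library size) of PRMT5 (SD, n = 3), PRMT5 knockdown libraries 68.9 ± 1.33 and MEP50 knockdown libraries 204 ± 6.35; for WDR77 the values were 39.4 ± 0.225, 44.1 ± 2.52 and 12.5 ± 1.58. Of 10 markers listed for A549-type epithelium, 4 were expressed well enough to be tested (KRT8, KRT18, CDH1 and KRT7) and SFTPB had no read; their summed level was 6345 to 6576 CPM in the control, 4154 to 4313 after PRMT5 knockdown and 3870 to 4147 after MEP50 knockdown. KRT8 and KRT18 made up nearly all of this sum and fell in both knockdowns, whereas CDH1 (40.1, 34.9 and 75.6 CPM) fell in the PRMT5 knockdown (adjusted p = 0.0131) and rose in the MEP50 knockdown (adjusted p = 8.73e-14), and KRT7 (2.52, 3.24 and 4.19 CPM) rose in the MEP50 knockdown (adjusted p = 0.0017). The 7 fibroblast markers summed to 108 to 110.2, 221 to 233 and 273 to 291 CPM (THY1 without a read). Most of that was COL3A1 (96.6, 214 and 256 CPM), while LUM (5.17, 0.629 and 7.9 CPM) fell in the PRMT5 knockdown (adjusted p = 2.01e-15) and rose in the MEP50 knockdown (adjusted p = 0.000845). The 8 blood markers summed to 15.7 to 17.6, 23.8 to 27.1 and 26 to 29.8 CPM, nearly all from CD68 (CD3E and HBB without a read), and the 6 endothelial markers to at most 0.27 CPM in any library (CLDN5 and ERG without a read). The epithelial, fibroblast and blood sums of both knockdowns lay outside the control range, the endothelial sums overlapped it, and their part in the chaperone results was not tested. In bulk RNA, fewer cells of a kind and less RNA per cell cannot be told apart.

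Chaperone genes took a visible share of the transcriptome, led by a handful of abundant genes. Of all reads on genes, members held 1.98 ± 0.014% in control libraries, 2.16 ± 0.0173% after PRMT5 knockdown and 1.95 ± 0.0462% after MEP50 knockdown (SD, n = 3). HSP90AA1, HSPA8 and HSP90AB1 alone gave 49.7% of the members' reads in the control, 52.7% after PRMT5 knockdown and 50.8% after MEP50 knockdown. Levels were also put on a scale of CPM per kilobase of exon, counting all annotated exons of a gene together. This length can exceed that of the transcripts present, so the order between genes depends on the annotation. It was 5248 bases for HSP90AA1 and 2980 for HSP90AB1, whose mean control levels were 4451 and 2623 CPM. On this scale the control order was HSP90AB1 at 880.1, HSP90AA1 at 848, HSPA8 at 563, HSPD1 at 353, HSP90B1 at 257, HSPA5 at 218, DNAJA1 at 214, HSPA9 at 152, HSPA4 at 151 and HSPB1 at 138. In the PRMT5 knockdown HSP90AA1 led with 1129 CPM per kilobase and HSP90AB1 followed with 848; in the MEP50 knockdown they stood at 946 and 764. Of these neighbours in the control order, HSPA9 and HSPA4 alone overlapped between libraries, at 152 to 153 and 149 to 152 CPM per kilobase.

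Of the 72 members, 59 had enough reads to be tested, and those were 27 cytosolic, all 13 ER, 7 mitochondrial and 12 other genes. The other 13 stayed below the filter, 5 of them without a single read (DNAJA4, DNAJB8, DNAJC25-GNG10, HSPB2 and HSPB2-C11orf52). The inducible HSP70 pair HSPA1A and HSPA1B was among the untested genes: HSPA1A had 31 reads over the 3 control libraries, 28 over the PRMT5 knockdown and 16 over the MEP50 knockdown, and HSPA1B had 16, 3 and 4. These 2 genes are near-identical copies, and reads that match both can be lost in counting, so their level is uncertain; how such reads were handled is not given in the sources used here. DNAJC15, a mitochondrial import J-protein, had 11, 3 and 0 reads. With no filter on low counts it was called in the MEP50 knockdown, from these few reads. The remaining untested genes were DNAJB7 and HSPB7 with 1 read each, DNAJC5G with 7, 2 and 0 reads, HSPA1L with 2, 13 and 2, and HSPB6 with 17, 10 and 17.

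Against the control, 23 of the 59 tested members were higher and 13 lower in the PRMT5 knockdown at an edgeR adjusted p under 0.05. The background in this comparison was large: 51.0% of all tested genes were called, 26.1% higher and 24.9% lower. In the MEP50 knockdown 16 members were higher and 20 lower, beside 51.7% of all tested genes called, 26.5% higher and 25.2% lower. Members called in either direction thus came to 61% in each knockdown, not far above the background of 51.0% and 51.7%. Most differences were small. At least 1.5-fold, 3 members were higher and 4 lower in the PRMT5 knockdown, and 4 were higher and 7 lower in the MEP50 knockdown. Those lower include HSPB3 in both knockdowns and HSPA6 in the MEP50 knockdown, which had few reads. The share of all tested genes at this fold was not counted, so these numbers have no background beside them. The median log2 difference of the tested members was 0.05 after PRMT5 knockdown and -0.05 after MEP50 knockdown, against 0.0032 and -0.0019 over all tested genes.

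The compartments differed in how often and in which direction their members were called. Of the 13 ER members, 4 were higher and 8 lower in the PRMT5 knockdown (median log2 difference -0.25), and 2 were higher and 9 lower in the MEP50 knockdown (median -0.34). Cytosolic members were divided, with 10 of 27 higher and 5 lower in the PRMT5 knockdown (median 0.04) and 6 higher and 10 lower in the MEP50 knockdown (median -0.06). No mitochondrial member was lower in either knockdown; 3 of 7 were higher in the PRMT5 knockdown and 1 of 7 in the MEP50 knockdown, with medians of 0.03 and 0.0021. Of the 12 other members, 6 were higher and 0 lower in the PRMT5 knockdown, and 7 higher and 1 lower in the MEP50 knockdown. These counts describe the members. Whether one compartment differs from another or from the background was not tested, and both knockdowns were set against the same 3 control libraries.

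**Figure D1:**
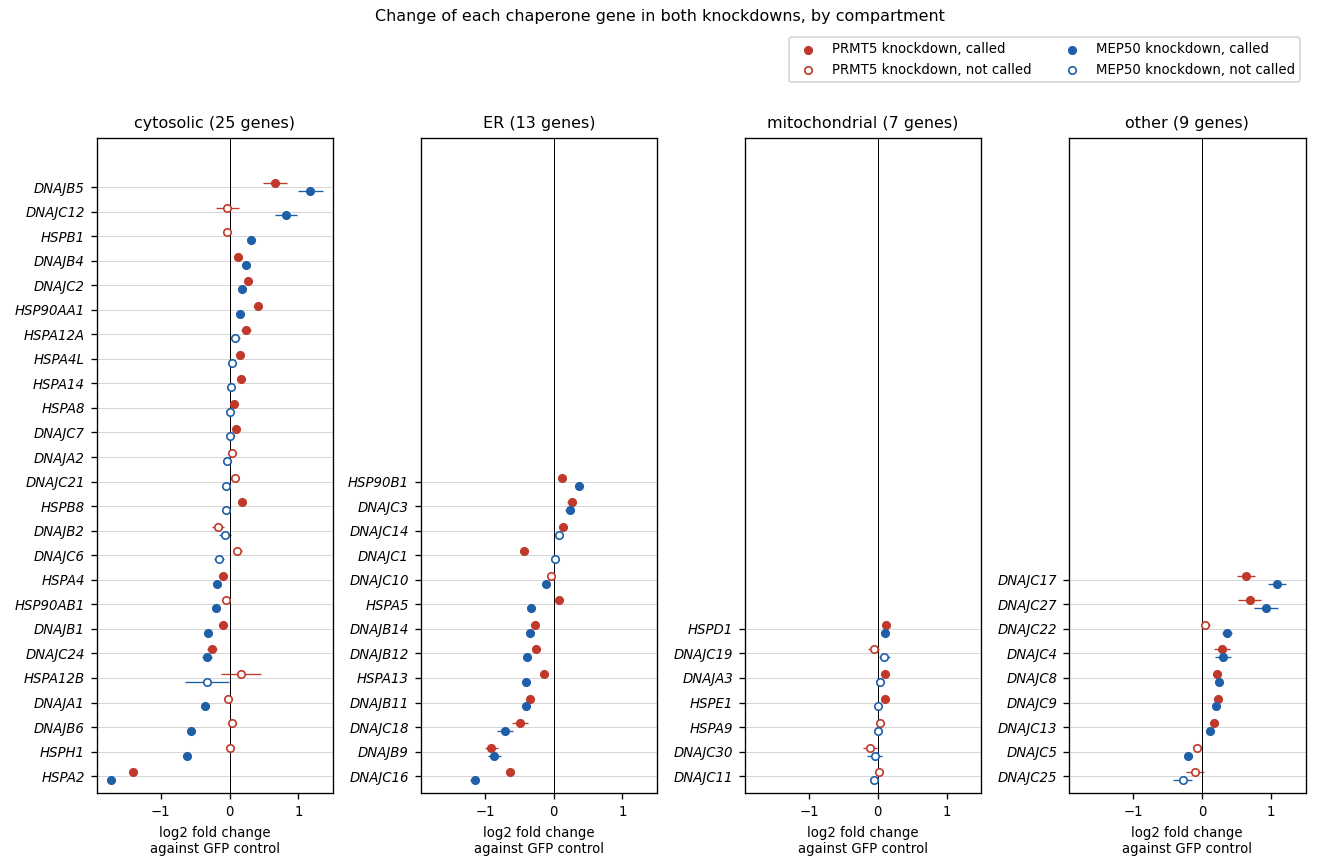
Log2 fold change against the GFP control (x axis) of every tested member with a mean of at least 1 CPM, by compartment, with the PRMT5 knockdown in red and the MEP50 knockdown in blue; filled points were called at an edgeR adjusted p under 0.05 and bars are standard errors. ER genes reach from -1.15 (DNAJC16, MEP50 knockdown) to 0.37 (HSP90B1, MEP50 knockdown), while the mitochondrial genes lie within -0.11 and 0.11.

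Among the cytosolic members, the inducible isoform of HSP90 rose while the constitutive isoform did not. HSP90AA1 stood at 4418, 4507 and 4429 CPM in the control libraries, 5972, 5813 and 5989 after PRMT5 knockdown and 5088, 4895 and 4907 after MEP50 knockdown. The 3 groups did not overlap: every PRMT5 knockdown library lay above every MEP50 knockdown library, and these lay above every control library. HSP90AA1 was 0.41 ± 0.022 log2 units higher in the PRMT5 knockdown (SE; edgeR adjusted p = 2.64e-19), or 1.33-fold, and 0.16 ± 0.022 higher in the MEP50 knockdown (adjusted p = 9.7e-08). HSP90AB1, its constitutive partner, had 2663, 2596 and 2609 CPM in the control, 2507, 2515 and 2559 after PRMT5 knockdown and 2363, 2221 and 2244 after MEP50 knockdown. It fell in the MEP50 knockdown (log2 difference -0.20 ± 0.0242, adjusted p = 2.12e-09). The lower HSP90AB1 values of the PRMT5 knockdown missed the threshold (-0.05 ± 0.0241, adjusted p = 0.0609), and passed it with DESeq2, with RLE or upper-quartile scaling and without control replicate 3, PRMT5 replicate 3 or any MEP50 replicate.

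The constitutive cytosolic HSP70 gene HSPA8 moved little, whereas its relative HSPA2 fell strongly. HSPA8 had 2701, 2727 and 2767 CPM in the control, 2835, 2808 and 2932 after PRMT5 knockdown and 2887, 2679 and 2694 after MEP50 knockdown. The PRMT5 knockdown lay above the control in all 3 libraries, by 0.07 ± 0.0254 log2 units (adjusted p = 0.0297), but the call did not hold with DESeq2, upper-quartile scaling or no filter on low counts (adjusted p = 0.0647, 0.0594 and 0.0787), or without any 1 of the 3 control libraries, PRMT5 replicates 1 and 3 or MEP50 replicate 3; the MEP50 knockdown overlapped the control (0.01 ± 0.0254, adjusted p = 0.742). HSPA2, an HSP70 best known from testis, stood at 139, 131 and 129.7 CPM in the control, 54.6, 47.4 and 49 after PRMT5 knockdown and 36.4, 44.6 and 39.9 after MEP50 knockdown. No knockdown library reached the lowest control library. HSPA2 was 2.65-fold lower in the PRMT5 knockdown (log2 difference -1.41 ± 0.0529, adjusted p = 2.71e-21) and 3.3-fold lower in the MEP50 knockdown (-1.72 ± 0.0556, adjusted p = 3.8e-23).

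HSPA6, a stress-inducible HSP70 that is nearly silent without heat, was at the edge of detection. Its levels were 1.28, 1.79 and 1.12 CPM in the control, 1.18, 1.03 and 1.1 after PRMT5 knockdown and 0.677, 0.0935 and 0.423 after MEP50 knockdown, from 116, 97 and 28 reads in all. The ratio of depth-scaled reads was 0.279 in the MEP50 knockdown against the control (exact 95% interval 0.178 to 0.425, counting error only), and the log2 difference was -1.81 ± 0.397 (adjusted p = 0.000183). In the PRMT5 knockdown the difference of -0.34 ± 0.326 was not called (adjusted p = 0.402). HSPA6 is close in sequence to the pseudogene HSPA7, so its reads may be shared with that copy. HSPA6 and HSPB3 lie outside the rule for named genes because of their low level and were chosen after their values were seen.

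The HSP110 genes, whose products release nucleotide from HSP70, include HSPH1, which differed strongly between the knockdowns. HSPH1 stood at 416, 413 and 428 CPM in the control, 415, 424 and 429 after PRMT5 knockdown, and 282, 270.1 and 268 after MEP50 knockdown. All 3 MEP50 libraries were below every other library, and control and PRMT5 libraries overlapped. HSPH1 was 1.53-fold lower in the MEP50 knockdown than in the control (log2 difference -0.62 ± 0.0287, adjusted p = 2.89e-21) and did not pass in the PRMT5 knockdown (0.01 ± 0.0281, adjusted p = 0.741). HSPA4, the most abundant HSP110 gene per length, had 776, 784 and 768 CPM in the control, 729.5, 718 and 719 after PRMT5 knockdown and 691, 687 and 678 after MEP50 knockdown. It was lower in both, by log2 differences of -0.10 ± 0.0249 (adjusted p = 0.000646) and -0.18 ± 0.025 (adjusted p = 9.33e-08). HSPA4L was instead higher in the PRMT5 knockdown (0.15 ± 0.0363, adjusted p = 0.000731) and did not pass in the MEP50 knockdown (0.03 ± 0.0369, adjusted p = 0.475).

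DNAJA1, DNAJB1 and DNAJB6, cytosolic J-domain proteins that feed clients to HSP70, were lower after MEP50 knockdown. DNAJA1, an abundant farnesylated J-protein, stood at 581, 581 and 589 CPM in the control, 568, 579 and 574 after PRMT5 knockdown and 474, 452 and 446 after MEP50 knockdown. The fall in the MEP50 knockdown was called (log2 difference -0.35 ± 0.0271, adjusted p = 2.25e-14) and that in the PRMT5 knockdown was not (-0.02 ± 0.0268, adjusted p = 0.467), although its libraries lay just under those of the control. DNAJB1, the HSP40 partner of HSPA8, had 184, 191 and 195 CPM in the control, 178, 177 and 178 after PRMT5 knockdown and 154, 153 and 149 after MEP50 knockdown. It was lower in both, by -0.09 ± 0.0318 (adjusted p = 0.0138) and -0.32 ± 0.0325 (adjusted p = 5.09e-11); the first call was lost without control replicate 3 (adjusted p = 0.0613). DNAJB6, a suppressor of polyglutamine aggregation whose promoter holds a heat shock element, had 71, 66.4 and 73.2 CPM in the control, 72, 70.8 and 73.7 after PRMT5 knockdown and 47.6, 44.8 and 50 after MEP50 knockdown. Only the MEP50 libraries stood apart, with a log2 difference of -0.56 ± 0.05 (adjusted p = 1.55e-12), while the PRMT5 difference was 0.04 ± 0.0472 (adjusted p = 0.497). Reads on DNAJB6 pseudogenes amounted to 5.66% of its own, and adding pseudogene reads to their parent genes changed no call of any member.

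Among other cytosolic J-proteins, DNAJB5, DNAJB4 and DNAJC2 rose in both knockdowns, DNAJC24 fell in both and DNAJC12 rose in the MEP50 knockdown. DNAJC24 had log2 differences of -0.25 ± 0.0681 (adjusted p = 0.0018) and -0.33 ± 0.0701 (adjusted p = 0.000108). Those of DNAJB4 were 0.12 ± 0.0467 (adjusted p = 0.0294) and 0.24 ± 0.0472 (adjusted p = 3.18e-05). Its PRMT5 call was lost in several alternatives, DESeq2 among them (adjusted p = 0.0539). DNAJB5 had 2.63, 3.2 and 2.17 CPM in the control, 3.43, 4.42 and 4.8 after PRMT5 knockdown and 6.62, 6.59 and 5.07 after MEP50 knockdown. It was 1.58-fold higher in the PRMT5 knockdown (0.66 ± 0.179 log2 units, adjusted p = 0.00204) and 2.26-fold higher in the MEP50 knockdown (1.17 ± 0.177, adjusted p = 4.14e-07). DNAJC12, a co-chaperone of aromatic amino acid hydroxylases, had 5.75, 6.07 and 3.37 CPM in the control, 5.25, 5.13 and 4.51 after PRMT5 knockdown and 8.31, 10.1 and 8.45 after MEP50 knockdown, where it was higher by 0.82 ± 0.155 log2 units (adjusted p = 2.54e-05). DNAJC2, the ribosome-bound J-protein that works with HSPA14 on nascent chains, rose from 76.1 ± 1.64 CPM to 92.1 ± 3.64 in the PRMT5 knockdown (0.28 ± 0.0439, adjusted p = 1.38e-06) and to 86.1 ± 5.24 in the MEP50 knockdown (0.18 ± 0.0449, adjusted p = 0.000852). HSPA14 itself was higher in the PRMT5 knockdown (0.16 ± 0.0399, adjusted p = 0.000834) and did not pass in the MEP50 knockdown (0.01 ± 0.0408, adjusted p = 0.794).

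Small heat shock proteins, which hold unfolded chains without ATP, were measured for 3 of 7 genes. HSPB1 (HSP27) had 218, 225 and 231 CPM in the control, 214, 212 and 232 after PRMT5 knockdown and 263, 292 and 279 after MEP50 knockdown. The MEP50 libraries lay above all others, by 0.31 ± 0.0361 log2 units over the control (adjusted p = 6.03e-09), and the PRMT5 libraries overlapped the control (-0.03 ± 0.036, adjusted p = 0.458). HSPB8, which works with BAG3 in selective autophagy, showed the other pattern, with 38.4, 39.2 and 37.6 CPM in the control, 43.4, 43.1 and 44.7 after PRMT5 knockdown and 38, 35.7 and 37.2 after MEP50 knockdown. Its rise in the PRMT5 knockdown was 0.19 ± 0.0546 log2 units (adjusted p = 0.00401), and its MEP50 difference of -0.06 ± 0.0566 was not called (adjusted p = 0.441). HSPB3, a small heat shock protein of muscle, had 68 reads over the control libraries, 1 over the PRMT5 knockdown and 2 over the MEP50 knockdown. The ratios of depth-scaled reads were 0.0138 (exact 95% interval 0.000345 to 0.0796) and 0.034 (0.00404 to 0.128), counting error only. HSPB3 passed the filter on low counts only through its control libraries. It is counted among the members called lower in both knockdowns, but its p-values carry no weight of their own and are not given.

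**Figure D2:**
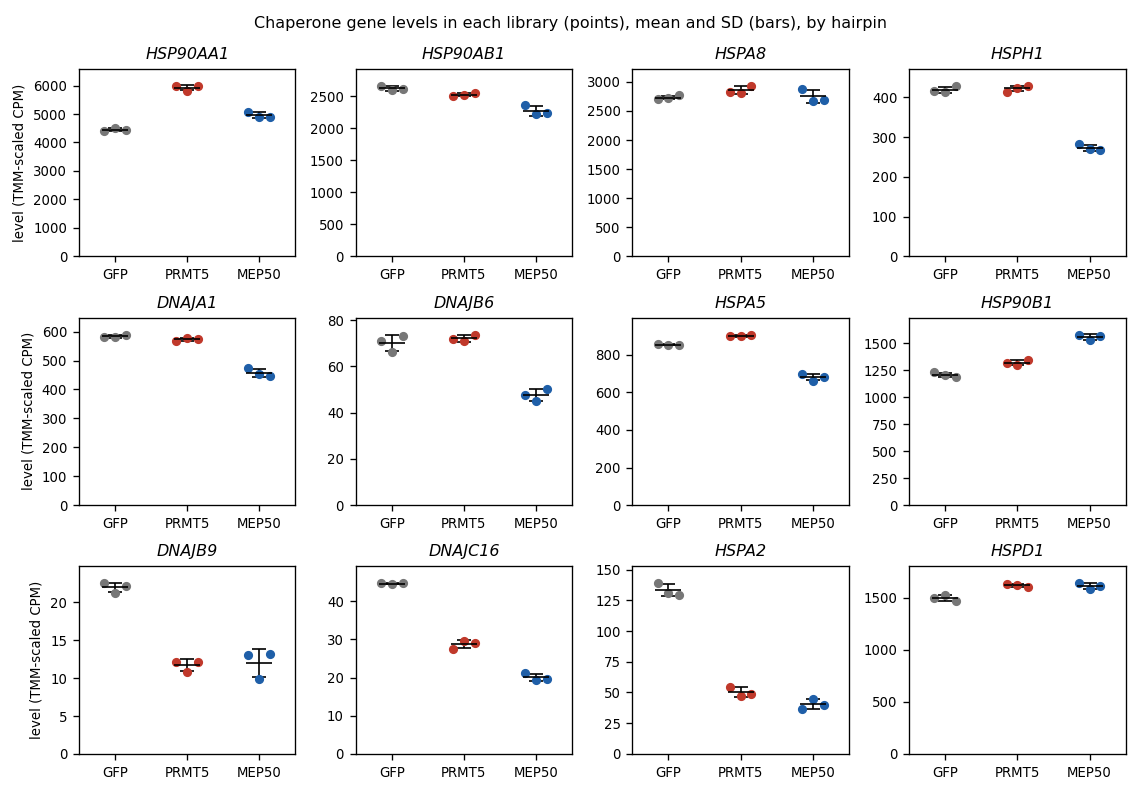
Level in TMM-scaled CPM (y axis, from 0) of 12 members in each of the 9 libraries, by hairpin (x axis); points are libraries, and the bars give the mean and SD of 3 replicates. HSPH1, DNAJA1 and DNAJB6 are low in the 3 MEP50 libraries alone, HSPA5 is highest in the PRMT5 and lowest in the MEP50 libraries, and HSPA2, DNAJB9 and DNAJC16 are low in all 6 knockdown libraries.

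In the ER the 2 most abundant chaperones parted. HSPA5 (BiP), the ER HSP70 and sensor of unfolded protein, had 857, 851 and 851 CPM in the control, 899, 898 and 907 after PRMT5 knockdown and 698, 662 and 684 after MEP50 knockdown. The groups did not overlap, with PRMT5 libraries above and MEP50 libraries below the control. HSPA5 was higher in the PRMT5 knockdown by 0.08 ± 0.0253 log2 units (adjusted p = 0.00832) and lower in the MEP50 knockdown (log2 difference -0.32 ± 0.0255, adjusted p = 4.2e-14). HSP90B1 (GRP94), the ER form of HSP90, had 1230.0, 1203 and 1190.3 CPM in the control, 1318, 1299 and 1341 after PRMT5 knockdown and 1580.0, 1529 and 1564 after MEP50 knockdown. It was higher in both knockdowns, by 0.13 ± 0.0244 (adjusted p = 2.79e-05) and 0.37 ± 0.0244 (adjusted p = 2.6e-16). HSPA5 and HSP90B1 are the members whose promoter stretches carry the ER stress element, and in the MEP50 knockdown they moved in opposite directions.

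DNAJB9, DNAJC16 and DNAJB11, J-domain proteins of the ER, were lower in both knockdowns. DNAJB9 (ERdj4), which helps hold the stress sensor IRE1 inactive, had 22.5, 21.3 and 22.1 CPM in the control, 12.2, 10.9 and 12.1 after PRMT5 knockdown and 13, 9.91 and 13.2 after MEP50 knockdown. It was 1.88-fold lower in the PRMT5 knockdown (log2 difference -0.91 ± 0.0919, adjusted p = 5.15e-11) and 1.82-fold lower in the MEP50 knockdown (-0.86 ± 0.0941, adjusted p = 3.11e-10). DNAJC16, an ER membrane J-protein, stood at 44.7, 44.5 and 44.7 CPM in the control, 27.6, 29.7 and 29 after PRMT5 knockdown and 21.2, 19.5 and 19.7 after MEP50 knockdown. Its 3 groups were well separated, 1.55-fold lower in the PRMT5 knockdown (-0.63 ± 0.0601, adjusted p = 9.57e-12) and 2.22-fold lower in the MEP50 knockdown (-1.15 ± 0.0642, adjusted p = 1.01e-18). DNAJB11 (ERdj3), a soluble J-protein that binds unfolded chains directly, had 144, 140.2 and 139 CPM in the control, 113, 111 and 111 after PRMT5 knockdown and 104, 110.1 and 106 after MEP50 knockdown, with log2 differences of -0.34 ± 0.0356 (adjusted p = 1.15e-10) and -0.41 ± 0.0363 (adjusted p = 1.48e-12).

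The membrane-anchored J-proteins DNAJB12, DNAJB14 and DNAJC18, which turn their J-domain to the cytosol and help degrade membrane proteins, fell in both knockdowns. DNAJC18 had 9.92 ± 0.58 CPM in the control, 7.04 ± 0.577 after PRMT5 knockdown and 6.06 ± 0.503 after MEP50 knockdown, with log2 differences of -0.50 ± 0.116 (adjusted p = 0.000443) and -0.71 ± 0.122 (adjusted p = 4.95e-06). DNAJB12 went from 68.1 ± 2.55 CPM to 57.1 ± 2.53 and 51.7 ± 2.61, and DNAJB14 from 75.9 ± 2.97 to 62.9 ± 4.8 and 59.8 ± 1.73. HSPA13, a second HSP70 of the ER, had 95.7, 92 and 93.2 CPM in the control, 88.3, 87.5 and 78.1 after PRMT5 knockdown and 71.3, 70.5 and 71 after MEP50 knockdown. Its differences were -0.15 ± 0.0432 (adjusted p = 0.00431) and -0.40 ± 0.0447 (adjusted p = 5.54e-10), and the first was not called without PRMT5 knockdown replicate 3. DNAJC3 (p58IPK), an inhibitor of the stress kinase PERK, went the other way, from 28.1, 26.7 and 26 CPM in the control to 34, 30.7 and 32.1 after PRMT5 knockdown and 30, 32.7 and 32.3 after MEP50 knockdown (0.26 ± 0.0644, adjusted p = 0.000786; 0.24 ± 0.0658, adjusted p = 0.00254). DNAJC10 (ERdj5), a disulfide reductase, was lower in the MEP50 knockdown (-0.11 ± 0.0336, adjusted p = 0.00667) and not called in the PRMT5 knockdown (-0.04 ± 0.0332, adjusted p = 0.388).

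DNAJC1, a J-protein of the ER membrane, was the ER member called lower in the PRMT5 knockdown and not called in the MEP50 knockdown. It stood at 54.8, 61.6 and 63.1 CPM in the control, 43.4, 45.5 and 44.1 after PRMT5 knockdown and 62.6, 61.5 and 57.5 after MEP50 knockdown. The PRMT5 libraries lay below all others. The log2 difference was -0.43 ± 0.0533 in the PRMT5 knockdown (adjusted p = 6.42e-09) and 0.01 ± 0.0529 in the MEP50 knockdown (adjusted p = 0.868).

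The 7 tested members counted as mitochondrial lay within -0.11 and 0.11 log2 units of the control in both knockdowns. DNAJC15, with 11, 3 and 0 reads, was not tested and is not covered by this range. Those placed under other or unsettled locations, DNAJC4 and DNAJC28 among them, are left out of this range. HSPD1 (HSP60), the chaperonin barrel, had 1502, 1529 and 1471 CPM in the control, 1634, 1629 and 1603 after PRMT5 knockdown and 1639.5, 1588 and 1616 after MEP50 knockdown. Every knockdown library was above every control library, by 0.11 ± 0.024 log2 units in each knockdown (adjusted p = 0.000134 and 0.000281). HSPE1 (HSP10), the lid of the barrel, had 254, 244 and 238 CPM in the control, 276, 255 and 263 after PRMT5 knockdown and 249, 245 and 243 after MEP50 knockdown. It rose by 0.11 ± 0.0315 in the PRMT5 knockdown (adjusted p = 0.00334), and this call did not hold without control replicate 3 or PRMT5 replicate 1 (adjusted p = 0.0596 and 0.108), and was not called in the MEP50 knockdown (0.00 ± 0.0319, adjusted p = 0.962). HSPA9 (mortalin), the import motor HSP70, had 1252, 1259 and 1265 CPM in the control, 1299, 1261 and 1289 after PRMT5 knockdown and 1277, 1251 and 1245 after MEP50 knockdown, and passed in neither (adjusted p = 0.347 and 0.978). DNAJA3, its J-protein, was 0.11 ± 0.0338 higher in the PRMT5 knockdown (adjusted p = 0.0068) and not called in the MEP50 knockdown (0.04 ± 0.0344, adjusted p = 0.388). DNAJC19, of the import motor, passed in neither, with means of 18.7 ± 1.29, 18 ± 1.36 and 19.9 ± 1.54 CPM.

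Among J-proteins with other or unsettled locations, several rose in both knockdowns. DNAJC17, a nuclear J-protein with a role in splicing, had 4.27, 4.52 and 4.85 CPM in the control, 6.94, 7 and 7.32 after PRMT5 knockdown and 8.17, 11.4 and 9.58 after MEP50 knockdown. It was 1.56-fold higher in the PRMT5 knockdown (0.64 ± 0.135 log2 units, adjusted p = 0.000122) and 2.13-fold higher in the MEP50 knockdown (1.09 ± 0.134, adjusted p = 5.02e-09). DNAJC27, a Rab-like protein with a J-domain, went from 2.85 ± 0.229 CPM to 4.58 ± 0.928 and 5.43 ± 0.406, with differences of 0.69 ± 0.17 (adjusted p = 0.000727) and 0.93 ± 0.171 (adjusted p = 1.33e-05). DNAJC8, a splicing-related J-protein, rose from 78.6 ± 2.53 CPM to 91.6 ± 2.72 (adjusted p = 1.69e-05) and 93.7 ± 1.29 (adjusted p = 1.66e-06), and DNAJC9, a histone co-chaperone, from 64.8 ± 1.4 to 76.3 ± 2.02 (adjusted p = 2.44e-05) and 75.1 ± 3.65 (adjusted p = 0.000154). DNAJC4 had 7.67 ± 0.914, 9.4 ± 0.45 and 9.47 ± 0.3 CPM, and both of its calls (adjusted p = 0.0296 and 0.0266) were lost in several alternatives. DNAJC22 was higher in the MEP50 knockdown (0.36 ± 0.0699, adjusted p = 2.86e-05) and not called in the PRMT5 knockdown (0.05 ± 0.0698, adjusted p = 0.587).

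The knockdowns were then compared with each other, which tests where they differ. Of the 59 tested members, 23 were higher in the PRMT5 knockdown than in the MEP50 knockdown and 8 were lower, beside 39.7% of all tested genes called, 19.2% higher and 20.5% lower. The split was widest in the cytosol, where 15 of 27 were higher in the PRMT5 knockdown and 4 were lower (median log2 difference 0.12), while 4 and 2 of 13 ER members and 1 and 0 of 7 mitochondrial members were called higher and lower. HSPH1 was 1.55-fold higher in the PRMT5 knockdown (0.63 ± 0.0287 log2 units, adjusted p = 9.12e-21) and DNAJB6 1.52-fold higher (0.60 ± 0.0497, adjusted p = 4.96e-13). HSPA5 was 0.40 ± 0.0255 higher (adjusted p = 1.88e-16), DNAJA1 0.33 ± 0.0271 (adjusted p = 5.09e-13), HSP90AA1 0.26 ± 0.022 (adjusted p = 1.57e-12) and DNAJB1 0.23 ± 0.0325 (adjusted p = 2.95e-07). HSPA2 was 0.32 ± 0.059 higher (adjusted p = 4.89e-05) and DNAJC16 0.52 ± 0.0661 (adjusted p = 2.45e-08). On the opposite side, lower in the PRMT5 knockdown, stood DNAJC12 (-0.85 ± 0.154, adjusted p = 2.31e-05), DNAJB5 (-0.51 ± 0.166, adjusted p = 0.0121), DNAJC17 (-0.45 ± 0.126, adjusted p = 0.00355), DNAJC1 (-0.44 ± 0.054, adjusted p = 8.97e-09), HSPB1 (-0.34 ± 0.036, adjusted p = 1.28e-09), DNAJC22 (-0.31 ± 0.0693, adjusted p = 0.000307) and HSP90B1 (-0.24 ± 0.0244, adjusted p = 1.28e-10). The call of DNAJB5 was lost without PRMT5 replicate 1 or MEP50 replicate 2, and that of DNAJC17 without MEP50 replicate 2 (adjusted p = 0.0537).

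Added up by compartment, the levels moved by at most a ratio of 1.11 against the control. Cytosolic members summed to 13185, 13247 and 13255 CPM in the control, 14658, 14452 and 14849.8 after PRMT5 knockdown and 13345, 12754 and 12798 after MEP50 knockdown, a ratio to the control of 1.11 and 0.98. HSP90AA1 alone made up this rise: without it, a split chosen after the values were seen, the other 35 cytosolic members came to 8778 ± 44.3, 8729 ± 117 and 8002 ± 221 CPM (ratios 0.994 and 0.912). ER members summed to 2831 ± 28.3, 2889 ± 14.8 and 2876 ± 47.8 CPM (ratios 1.02 and 1.02), the groups overlapping between the control and the MEP50 knockdown. HSPA5 and HSP90B1 gave 72.8% of the ER sum in the control. Without them, again a split chosen after the values were seen, the other 11 ER members came to 770.1 ± 6.78 CPM in the control, 669 ± 18.9 after PRMT5 knockdown and 637 ± 7.12 after MEP50 knockdown (ratios 0.868 and 0.827). Mitochondrial members summed to 3255 ± 26.4, 3431 ± 31.4 and 3370.1 ± 43 CPM (ratios 1.05 and 1.04), with each knockdown library above every control library.

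**Figure D3:**
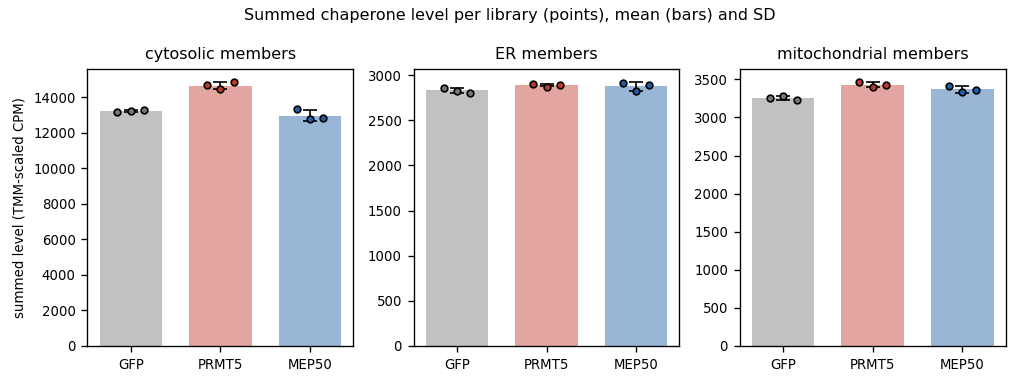
Summed level of the cytosolic, ER and mitochondrial members in TMM-scaled CPM (y axis, from 0) in each library (points) by hairpin (x axis); bars are the mean and SD of 3 replicates. The cytosolic sum is highest in the PRMT5 libraries, 14452 to 14849.8 CPM, and the ER sum differs by a ratio of 1.02 between each knockdown and the control.

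Genes that work with the members were read from lists of partners. Over all tested genes, 51.0% were called in the PRMT5 knockdown (26.1% higher, 24.9% lower) and 51.7% in the MEP50 knockdown (26.5% higher, 25.2% lower). Whether any list departs from this background was not tested. Of 19 tested genes listed as HSP90 co-chaperones, 6 were higher and 5 lower in the PRMT5 knockdown. In the MEP50 knockdown 5 were higher and 7 lower. The list held ITGB1BP1, an integrin-binding protein and not an established HSP90 co-chaperone. It counts among those called higher in both knockdowns (0.40 ± 0.0651 and 0.34 ± 0.0667). CDC37, the adaptor that brings kinases to HSP90, fell from 166, 172 and 172 CPM in the control to 70.9, 76 and 78.4 in the PRMT5 knockdown (-1.18 ± 0.0381, adjusted p = 1.25e-26), and to 146, 137 and 138 in the MEP50 knockdown (-0.28 ± 0.0369, adjusted p = 3.77e-08). The knockdowns differed from each other at this gene by -0.90 ± 0.0388 log2 units (adjusted p = 1.39e-21). FKBP5, an immunophilin of steroid receptor complexes, rose in both (0.39 ± 0.0444 and 0.62 ± 0.0446). Of 14 exchange factors and partners of HSP70, 1 was higher and 3 lower in the PRMT5 knockdown, and 2 higher and 8 lower in the MEP50 knockdown. BAG1 was higher in both (0.42 ± 0.0586 and 0.54 ± 0.0593), and STUB1 (CHIP), the ubiquitin ligase of HSP70, was lower in the MEP50 knockdown (-0.38 ± 0.0542, adjusted p = 1.78e-07) and not called in the PRMT5 knockdown (-0.08 ± 0.0521, adjusted p = 0.219).

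Further folding machinery of the same compartments was listed too. Of 16 other ER folding genes, 3 were higher and 8 lower in the PRMT5 knockdown, and 4 higher and 7 lower in the MEP50 knockdown. The disulfide oxidase ERO1B fell from 40 ± 1.2 CPM to 19.4 ± 0.873 and 17.6 ± 1.15 (-1.05 ± 0.068, adjusted p = 1.32e-16; -1.19 ± 0.0707, adjusted p = 7.36e-18). Its sister ERO1A was higher in the PRMT5 knockdown (0.12 ± 0.0306, adjusted p = 0.000913) and lower in the MEP50 knockdown (-0.55 ± 0.0317, adjusted p = 2.19e-18). HYOU1, the ER exchange factor for HSPA5, was lower in both (-0.34 ± 0.0349 and -0.22 ± 0.0352). Of 12 other mitochondrial chaperones and proteases, 3 were higher and 1 lower in the PRMT5 knockdown, and 5 higher and 2 lower in the MEP50 knockdown. TIMM44, the anchor of the import motor, rose in both (0.57 ± 0.0524 and 0.60 ± 0.0533), as did TRAP1, the mitochondrial HSP90 (0.23 ± 0.0323 and 0.21 ± 0.0326). Of 14 subunits of the cytosolic chaperonin and prefoldin, 5 were higher and 4 lower in the PRMT5 knockdown, and 2 higher and 7 lower in the MEP50 knockdown, with CCT3 at -0.21 ± 0.0257 in the latter (adjusted p = 3.37e-09).

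Among 7 genes listed as heat shock factors and regulators, 3 were higher and 0 lower in the PRMT5 knockdown. In the MEP50 knockdown 3 were higher and 2 lower. The background was the same 51.0% and 51.7% of all tested genes called. HSF1, the main heat shock factor, had 102, 101 and 96.5 CPM in the control, 110.5, 111 and 111 after PRMT5 knockdown and 108, 104 and 102 after MEP50 knockdown. Its rise was called in the PRMT5 knockdown (0.15 ± 0.0376, adjusted p = 0.000939) and not in the MEP50 knockdown (0.07 ± 0.0384, adjusted p = 0.139). HSF2 was lower in the MEP50 knockdown (-0.33 ± 0.0916, adjusted p = 0.00271) and not called in the PRMT5 knockdown (-0.11 ± 0.0879, adjusted p = 0.293). SERPINH1 (HSP47) was counted in this list although it is the collagen chaperone of the ER and no heat shock factor. It rose in both (0.24 ± 0.03 and 0.37 ± 0.03). The remaining gene called higher in the PRMT5 knockdown was HSBP1 (0.10 ± 0.0332, adjusted p = 0.0126 by edgeR). Of 3 J-domain proteins with other names, 1 was higher and 1 lower in the PRMT5 knockdown, and 1 higher and 0 lower in the MEP50 knockdown. SEC63, the J-protein of the ER translocon, was higher in both (0.15 ± 0.0353, adjusted p = 0.000449; 0.11 ± 0.0358, adjusted p = 0.0118) by edgeR's test. The MEP50 call was lost with no filter on low counts (adjusted p = 0.0627), without control replicate 1 (0.0682) and without MEP50 replicate 3 (0.0917).

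**Figure D4:**
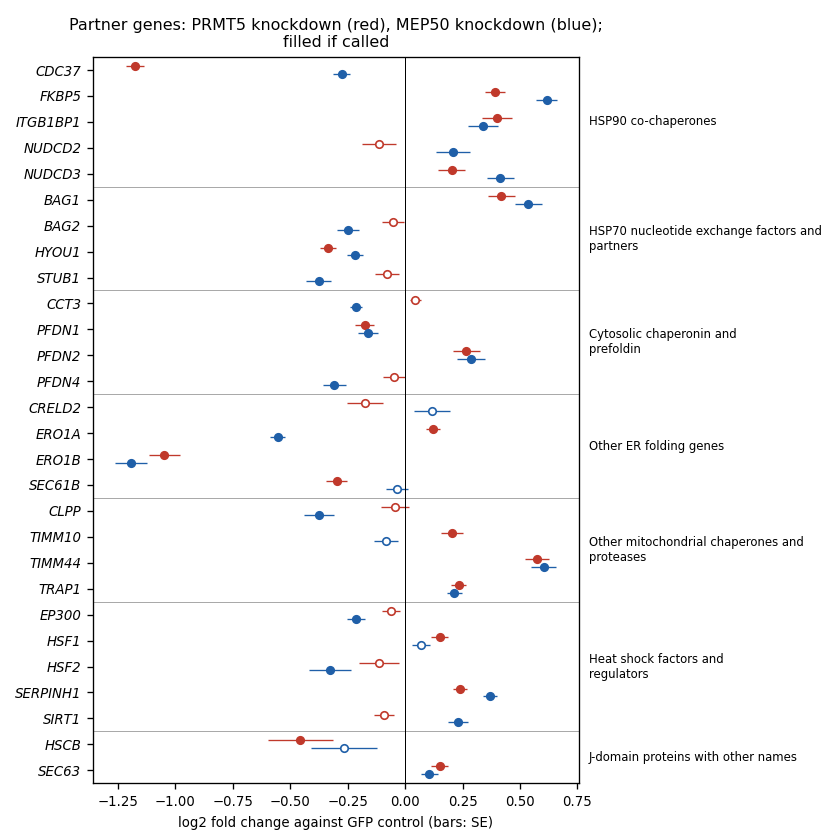
Log2 fold change against the GFP control (x axis; bars are standard errors) of the partner genes named by rule in each list, with the PRMT5 knockdown in red and the MEP50 knockdown in blue, filled where called at an edgeR adjusted p under 0.05. CDC37 stands at -1.18 in the PRMT5 knockdown and at -0.28 in the MEP50 knockdown, ERO1A has points on both sides of 0, and ERO1B and TIMM44 lie on one side in both knockdowns. ITGB1BP1, shown with the HSP90 co-chaperones, is an integrin-binding protein and not an established co-chaperone.

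The authors' deposited tables of changed genes listed 32 members in the PRMT5 knockdown, 19 higher and 13 lower, and 35 in the MEP50 knockdown, 15 higher and 20 lower. All of these were called here in the same direction, which is no independent check, since those tables rest on the same libraries and also used edgeR. Called here and not in the authors' deposited table were DNAJB4, DNAJC14, DNAJC4 and HSPA8 in the PRMT5 knockdown, and DNAJC4 in the MEP50 knockdown. The 4 calls of the PRMT5 knockdown were also lost here with DESeq2, and that of DNAJC4 in the MEP50 knockdown was not.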

How the data were processed

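The 9 libraries of A549 RNA were grouped by their labels. Per the submitters' processing notes, Trim Galore, STAR and HTSeq were run against hg19, and DESeq2 and edgeR were used. Versions, annotation, strand setting and the handling of reads with several matches are not given in the sources used here. The authors' deposited table holds whole-number read counts per Ensembl gene, with 5 summary lines that entered no library size (reads outside genes came to 12.1%, 14.2% and 13.2% in the control, PRMT5 and MEP50 groups). The authors' deposited comparison tables hold, per the file headers, log2 fold changes and adjusted p-values or FDR of DESeq2 and edgeR. Symbols came from a gene-name table (44822 of 51796 identifiers), and gene types and exon lengths from GENCODE 29 on GRCh38.

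The counts entered a single edgeR 4.0.16 model in R 4.3.3 (group only, TMM scaling, filterByExpr, robust quasi-likelihood F test). P-values were adjusted by Benjamini-Hochberg over all 14582 genes, and genes under 0.05 are called. The script was tested on simulated data. Levels are TMM-scaled CPM; the SE is the size of the log2 fold change divided by the root of F. Replicates differed by 3.39 to 4.71 times the counting variance. Between groups, deviations of same-numbered libraries correlated by -0.036 to 0.052 and those of differently numbered libraries by -0.054 to 0.052. Replicate numbers thus showed no sign of pairing, which this check cannot exclude, and samples were treated as unpaired.

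The members, lists and tests were chosen with earlier results of these data known. The rule named, per comparison, the 6 largest rises and falls among called members with a mean of at least 1 CPM, the 2 largest changes per compartment, a fixed set of main chaperones, the 2 largest called changes per partner list, HSF1 and both targets. HSPA4L, HSPA14, HSPA13, DNAJB4, DNAJB12, DNAJB14, DNAJC8, DNAJC9, DNAJC24, HSBP1, HSPA6 and HSPB3, and any gene given in a comparison that did not name it, were named after their values were seen. Alternatives were other scalings (RLE, upper quartile, library total), other filters on low counts, a replicate block, fits of 6 libraries, pseudogene reads added to their parents, DESeq2 1.42.0 and leaving out each library. Partner genes are reported by list counts and examples, and 1 gene was taken out of the partner lists and is not reported here.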

Additional observations from a re-analysis of the deposited data

Results flagged for a closer look

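HSPA5 (BiP) was singled out because both knockdowns moved it in opposite directions from the control and the direct test of the difference passed. It was 0.40 ± 0.0255 log2 units higher in the PRMT5 knockdown than in the MEP50 knockdown (edgeR adjusted p = 1.88e-16), with all 3 PRMT5 libraries above and all 3 MEP50 libraries below every control library. Groups of 3 libraries are too small for the check on single libraries that stand apart.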

How the results depend on the processing

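No called difference reversed under any alternative run. Over the alternatives that keep all libraries, 18 to 23 members were higher and 13 to 14 lower in the PRMT5 knockdown, 15 to 16 higher and 19 to 21 lower in the MEP50 knockdown, and 21 to 24 higher and 7 to 8 lower between the knockdowns. Leaving out single libraries gave 17 to 23 and 13 to 14, 15 to 16 and 20 to 22, and 17 to 23 and 6 to 8. With the replicate number as a block the counts stayed at 23 and 13, 16 and 20, and 23 and 8, and no member's call changed. Of 267 results for tested members, named partners and both targets, 226 kept their side of the threshold and 41 did not. This counts, for each gene, only the alternatives in which it was tested. With library-total scaling the log2 ratio of summed levels between the PRMT5 and MEP50 knockdowns was 0.028 for the ER (0.0068 with TMM) and 0.047 for mitochondria (0.0259 with TMM). Without single libraries this ER ratio ran from -0.0067 to 0.0162. The causes were not tested. Under 1 CPM lay 18 of 72 members; 5 of these were tested, and the other 13, HSPA1A and HSPA1B among them, had too few reads to be tested.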
